A study of Mus musculus with 23 samples.

Results

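*Plet1* and 6 other genes used as markers of epithelial progenitors (*Cd24a*, *Sox9*, *Lgr5*, *Prom1*, *Bmi1* and *Ly6a*) were followed across fetal thymic epithelial cells (TECs) of the mouse. The 7 genes were fixed by name, with earlier results of these data known, and not by a cut on their measured values. They are 7 of the 50123 genes counted, of which 34811 had at least 1 read and 19140 passed the filter on low counts. All 7 passed this filter. RNA had been sequenced from 23 libraries of 100 sorted cells each, made by Smart-seq2, which amplifies full-length cDNA without molecular identifiers. The cells were EPCAM-positive TECs gated on the surface protein PLET1, and the study asked how loss or gain of Notch signalling changes them. Controls are labelled wild type and were littermates from the *Rbpj* cross. In that cross 1 parent had Foxn1Cre and 1 floxed *Rbpj* allele, and the other had 2 floxed alleles. Every embryo of it, controls included, therefore carried at least 1 floxed *Rbpj* allele. Which controls also carried Foxn1Cre is not given in the sources used here. In the *Rbpj* cKO (Foxn1Cre with 2 floxed *Rbpj* alleles) the DNA-binding partner of Notch is deleted in cells that express *Foxn1*, the transcription factor that drives TEC differentiation. In the NICD mice (Foxn1Cre with a Rosa26 allele that has a floxed STOP before NICD-IRES-EGFP) the active part of NOTCH1 is made in the same cells. The strain label was C57BL/6 for every group. There were 3 libraries each of E12.5 PLET1+ control, E12.5 PLET1+ *Rbpj* cKO, E14.5 PLET1+ control, E14.5 PLET1- control, E14.5 PLET1+ *Rbpj* cKO and E14.5 PLET1- *Rbpj* cKO cells, while E14.5 PLET1+ NICD had 5, where E12.5 and E14.5 are days of embryonic development. The 5 NICD libraries were 5 embryos of 1 litter, sorted in another laboratory than the rest and forming a batch of their own, so that genotype, laboratory and batch cannot be told apart in any comparison with them. The stages likewise carry different batch labels. The stage, *Rbpj* and NICD comparisons share control libraries.

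PLET1 is a small GPI-linked surface protein carried by the earliest thymic epithelial progenitors, and fewer TECs carry it as the fetal thymus matures. CD24 (*Cd24a*) is another GPI-linked glycoprotein, high on many immature epithelial and blood cells. SOX9 is a transcription factor that maintains progenitors in several epithelia and directs cartilage formation. LGR5 is the receptor for R-spondins that amplifies Wnt signalling in intestinal stem cells, and prominin 1 (*Prom1*, CD133) is a membrane protein of plasma membrane protrusions used to sort stem cells. BMI1 is a subunit of Polycomb repressive complex 1 (PRC1), which represses the cell cycle inhibitor locus *Cdkn2a*. SCA1 (*Ly6a*) belongs to the Ly6 family of GPI-linked proteins and marks blood stem cells and some epithelial progenitors. Foxn1Cre acts once TECs have begun to express *Foxn1*.

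All 7 are protein-coding genes of GRCm38. *Plet1* (ENSMUSG00000032068.14) lies on the plus strand of chromosome 9 from 50494525 to 50505482, and *Cd24a* (ENSMUSG00000047139.9) on the plus strand of chromosome 10 from 43578284 to 43584265. *Sox9* (ENSMUSG00000000567.5) lies on the plus strand of chromosome 11 from 112782224 to 112787760, and *Lgr5* (ENSMUSG00000020140.15) on the minus strand of chromosome 10 from 115450311 to 115587780. *Prom1* (ENSMUSG00000029086.15) lies on the minus strand of chromosome 5 from 43993620 to 44102032, *Bmi1* (ENSMUSG00000026739.13) on the plus strand of chromosome 2 from 18677018 to 18686629, and *Ly6a* (ENSMUSG00000075602.10) on the minus strand of chromosome 15 from 74994877 to 74998031. Reads were counted over exons without regard to strand, so reads of the antisense gene *Plet1os*, which shares 261 exon bases with *Plet1*, and of *Gm16401*, which shares 424 with *Prom1*, cannot be told apart from theirs. The antisense genes themselves held 0 to 60 and 0 to 40 counts per library.

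RefSeq promoter windows (GRCm38.p6, from 250 bases before to 50 bases after a gene's start) were at hand for 3 of the 7 genes, *Plet1*, *Prom1* and *Bmi1*. They were searched for TGGGAA, the core of the sequence that RBPJ binds, on both strands, and for the TATA box letters TATAAA on the coding strand. The first is shown because *Rbpj* was the gene deleted, the second because it is in the *Plet1* window. The *Plet1* window held no TGGGAA and had TATAAA 30 bases before the gene's start. Of the 32851 windows of all genes, 8.32% held TATAAA anywhere in their 300 bases, and the share with it at this position was not counted. *Prom1* (1 of its 2 windows) and *Bmi1* each had 1 match to TGGGAA, on the opposite strand and therefore read as TTCCCA (116 and 246 bases before the start), and 25.6% of all windows held it in either direction. The distances are from the RefSeq start of each window. For *Prom1* that start lies inside the gene as placed above, so the *Prom1* stretch is within the annotated gene and not before it. These are matches of letters, not measured binding. The stretches run 5′ to 3′ along each gene's coding strand, at chr9:50494425-50494524 (plus strand), chr5:44101825-44101874 (minus strand) and chr2:18676768-18676799 (plus strand), and the capitals mark the match.
Plet1: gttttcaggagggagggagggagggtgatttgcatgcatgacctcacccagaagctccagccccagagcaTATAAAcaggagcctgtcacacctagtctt
Prom1: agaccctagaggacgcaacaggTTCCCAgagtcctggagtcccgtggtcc
Bmi1: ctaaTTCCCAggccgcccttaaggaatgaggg

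Libraries held 20053241 to 92699969 counts on genes. *Rbpj* itself had 2.09 to 16.2 CPM in the E12.5 cKO against 15.1 to 37.9 in E12.5 controls (CPM are counts scaled to a common library size with edgeR's TMM normalization), so that the ranges overlapped. At E14.5 it had 0.061 to 10.4 against 18.4 to 20.4 CPM in PLET1+ cells, and 3.42 to 8.29 against 9.5 to 26.2 CPM in PLET1- cells, without overlap in either gate. *Notch1*, whose intracellular part the NICD transgene encodes, had 30.4 to 87.0 CPM in NICD and 16.7 to 18.4 CPM in E14.5 PLET1+ controls. All 7 markers of thymic epithelium were detected in every group, with a summed level of 2778 to 12573 CPM. Mesenchymal markers (9 genes) summed to 23.3 to 426.3 CPM in NICD and 5.65 to 24.4 CPM in E14.5 PLET1+ controls, and to 13.1 to 1428 CPM in E14.5 PLET1- controls. In the cKO they summed to 29.0 to 592.3 CPM in E14.5 PLET1- and 5.89 to 45.1 CPM in E14.5 PLET1+ cells. Parathyroid markers (4 genes) summed to 2.17 to 1559 CPM in PLET1- and 2.11 to 400.3 CPM in PLET1+ controls, and 1.12 to 338.8 CPM in PLET1- and 0.458 to 7.22 CPM in PLET1+ cKO cells. The part of either list in the results below was not tested. Endothelial (7 genes), erythroid (6) and myeloid (5) markers summed to at most 20.5, 5.94 and 2.37 CPM in any library. Thymocyte markers (9 genes) summed to at most 58.8 CPM. Of these, *Lck* alone reached 26.9 CPM in E12.5 controls and 58.8 CPM in NICD, whereas *Cd3d*, *Cd3e*, *Rag1* and *Il7r* were at 0 in every E12.5 library. In the E14.5 PLET1+ cKO *Ptprc* reached 13.4 CPM and *Cd3g* 7.51 CPM. In the E14.5 *Rbpj* cross the 4 libraries numbered 1 had 7.8% to 9.54% of counts on mitochondrial genes and the other 8 had 4.21% to 5.36%.

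Divided by exon length, *Cd24a* was the most abundant of the 7 transcripts, with a median of 106.6 CPM per kb over the 23 libraries, above 96.7% of the genes tested. *Sox9* (23.9 CPM per kb) and *Plet1* (11.9) followed. *Bmi1* (3.51) and *Prom1* (3.21) lay nearer the middle of all genes, and *Lgr5* (0.0528) was low. *Ly6a* was the rarest, with no read in 12 of the 23 libraries. The 7 genes also differed in how evenly they were detected. *Cd24a* and *Sox9* had reads in all 23 libraries, with 15.4-fold and 11.8-fold between the lowest and highest level per length. *Prom1* and *Bmi1* also had reads in all 23 but ranged 220.9-fold and 507-fold. *Lgr5* was at 3 counts or fewer in 6 libraries.

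**Figure D1:**
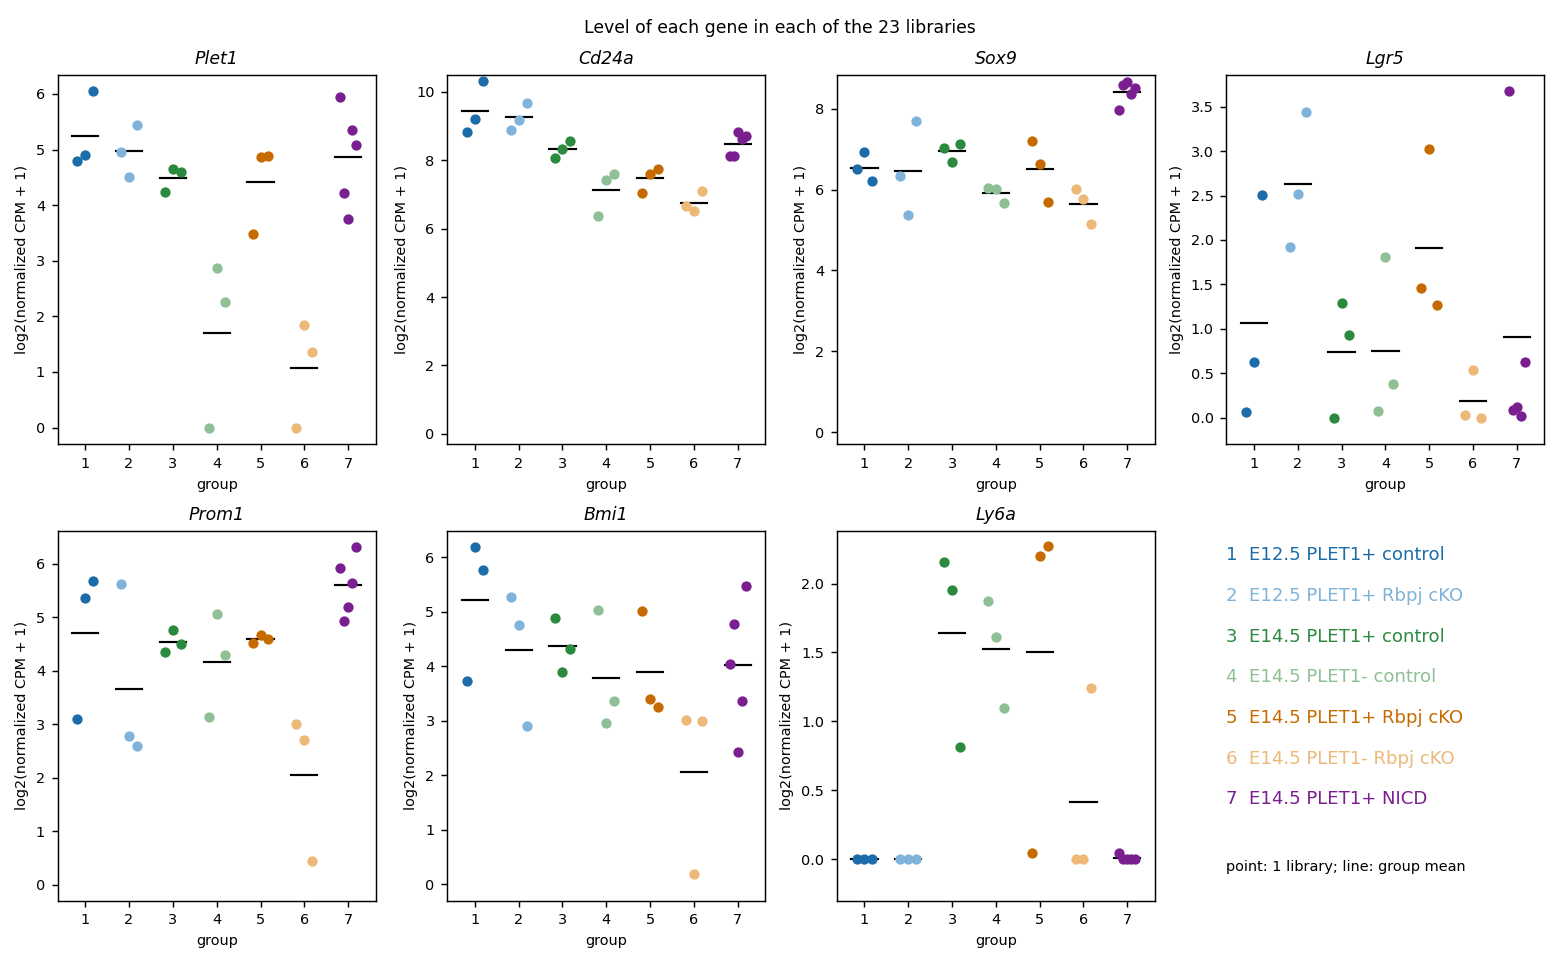
Level of each of the 7 genes in each of the 23 libraries, as log2(normalized CPM + 1), by group (1 to 7, named at the lower right); each point is 1 library and each line the group's mean. Sox9 is highest in all 5 NICD libraries (250.9 to 405.6 CPM), Plet1 is lowest in the 6 PLET1- libraries (0 to 6.3 CPM), and Ly6a is at 0 in all 6 E12.5 libraries.

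*Plet1* RNA followed the sort on its protein. In the E14.5 PLET1+ controls it stood at 17.9, 24.0 and 23.1 CPM in replicates 1, 2 and 3, and in the E14.5 PLET1- controls at 0, 6.3 and 3.76 CPM. In the *Rbpj* cKO it stood at 10.2, 28.3 and 28.4 CPM in PLET1+ cells and at 0, 2.57 and 1.57 CPM in PLET1- cells. Every PLET1+ library was above every PLET1- library in both genotypes. The 2 libraries without a single read were both replicate 1, where a count of 0 allows up to 0.0766 CPM in the control and 0.0631 CPM in the cKO (3 counts, counting error only, since reads copied from 1 molecule are not independent). The PLET1+ partners of these libraries were also the lowest of their groups. The other 4 PLET1- libraries held 44 to 198 *Plet1* counts, so the transcript was lower but present there. Fewer cells with the transcript and less of it per cell cannot be told apart in these bulk samples. The means were 21.7 ± 3.34 and 3.36 ± 3.17 CPM (SD, n = 3) in controls and 22.3 ± 10.5 and 1.38 ± 1.3 CPM (SD, n = 3) in the cKO. The log2 fold change of PLET1+ over PLET1- cells was 2.70 ± 1.34 (SE) in controls, 4.0 ± 1.43 in the cKO and 3.35 ± 0.98 over both. Its size depended on single libraries and on the fit. Leaving out 1 library gave 2.10 (PLET1- control replicate 1) to 4.29 (PLET1- control replicate 2) in controls, 3.44 to 5.52 (PLET1- cKO replicate 2) in the cKO and 3.06 to 4.14 (PLET1- control replicate 2) over both. limma-voom gave 4.60, 5.83 and 5.22, and the replicate block 4.04, 4.88 and 4.46, in controls, in the cKO and over both. None of the 3 edgeR values passed the quasi-likelihood test of edgeR after Benjamini-Hochberg correction for all 19140 genes (adjusted p = 1 for each), and over both genotypes the adjusted p was 0.00674 with DESeq2 and 0.000882 without the filter on low counts. The gate difference in the cKO was not shown to differ from that in controls (log2 difference 1.3, SE 1.80, with an adjusted p of 1 in edgeR), and its direction reversed without 1 library, PLET1- control replicate 2, to -0.30.

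Within PLET1+ cells, *Plet1* RNA was spread widely among libraries of the same group. It was 26.8, 28.8 and 65.1 CPM in the E12.5 controls, 30.1, 21.7 and 42.5 CPM in the E12.5 cKO, and 60.8, 17.5, 12.4, 40.0 and 33.0 CPM in the 5 NICD libraries. The E12.5 controls were all above the E14.5 controls, whereas the NICD littermates lay on both sides of the E14.5 control range. The log2 fold change was -0.77 ± 1.27 (SE, adjusted p = 0.864) for E14.5 over E12.5 controls, 0.59 (1.15, adjusted p = 0.889) for NICD over E14.5 controls and -0.18 (1.12, adjusted p = 1) for NICD over E12.5 controls, from edgeR with Benjamini-Hochberg adjustment. Deletion of *Rbpj* gave -0.27 (1.26) at E12.5, 0.02 (1.26) in E14.5 PLET1+ and -1.28 (1.29) in E14.5 PLET1- cells, with adjusted p = 1 for each from edgeR, and the *Rbpj* effects at the 2 stages differed by 0.29 (1.79, adjusted p = 1). Each of these standard errors is larger than the 1 log2 unit of a 2-fold change. Fits of only the groups compared had smaller ones, such as 0.39 between the stages and 0.43 for *Rbpj* loss at E12.5. The exception was 2.38 for *Rbpj* loss in E14.5 PLET1- cells. These fits did not call *Plet1* either. The value in E14.5 PLET1+ cells was -0.40 when same-numbered libraries were paired.

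The fitted gate difference over both genotypes was positive for all 7 genes under each of 3 scalings (TMM, RLE and housekeeping genes), with a median log2 fold change of 1.42 against 0.00 for all genes tested, of which 50.1% were positive. None of the 7 was called (adjusted p of at most 0.05 from edgeR), as none of all genes was (0%), in controls, in the cKO or over both, and 0% of genes had a gate difference that differed between genotypes. At an unadjusted p under 0.05 there were 4 of the 7 over both genotypes (4.49% of all genes), 2 in controls (2.87%) and 4 in the cKO (2.31%). DESeq2 called 3 of the 7 over both genotypes (*Plet1*, *Cd24a* and *Sox9*) and 1 in controls (*Cd24a*), and limma-voom called none. Without the 4 libraries numbered 1, whose mitochondrial share was higher, edgeR called 0 of the 7 as well. Because the cells were sorted on its protein, *Plet1* is a check of the sort among these.

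*Cd24a*, the CD24 gene, stood at 267.3, 318.3 and 373.4 CPM in the E14.5 PLET1+ controls and at 82.0, 170.5 and 191.9 CPM in the PLET1- controls. In the cKO it stood at 131.6, 193.8 and 214.6 CPM in PLET1+ cells and at 99.6, 90.9 and 134.6 CPM in PLET1- cells. PLET1+ libraries were the higher of all 6 same-numbered pairs, and in controls the groups did not overlap, whereas in the cKO the lowest PLET1+ library was just under the highest PLET1- one. edgeR gave log2 fold changes of 1.13 ± 0.28 (SE, adjusted p = 1) in controls, 0.74 (0.27, adjusted p = 1) in the cKO and 0.93 (0.19, adjusted p = 0.47) over both. DESeq2 gave an adjusted p of 0.00102 over both, and edgeR with same-numbered libraries paired gave 0.159. The direction held within the batch of replicates 1 and 2, where the control means were 292.8 and 126.3 CPM, and in the batch of replicate 3.

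*Sox9*, the transcription factor, differed between the gates by about 1 log2 unit in either genotype, which did not pass edgeR's test. It stood at 129.4, 102.1 and 137.8 CPM in PLET1+ controls against 64.2, 64.1 and 49.8 CPM in PLET1- controls. In the cKO the values were 146.7, 98.6 and 50.8 CPM against 63.1, 53.1 and 34.4 CPM. The control groups did not overlap, and replicate 3 of the PLET1+ cKO was under the highest PLET1- cKO library. Its log2 fold changes were 1.10 ± 0.41 (SE, adjusted p = 1), 0.94 (0.40, adjusted p = 1) and 1.02 (0.29, adjusted p = 1) in controls, in the cKO and over both, from edgeR, with an adjusted p of 0.0432 over both from DESeq2. *Sox9*, *Cd24a* and *Plet1* were the 3 of the 7 that were higher in 6 of 6 pairs, as 3.29% of all genes tested were.

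For *Prom1*, the prominin gene, the gates were apart in the cKO and overlapped in controls. It stood at 21.9, 24.4 and 23 CPM in PLET1+ cKO cells and at 7.01, 5.48 and 0.357 CPM in PLET1- cKO cells, with no overlap. In controls it stood at 19.3, 26.1 and 21.6 CPM in PLET1+ and 7.76, 32.4 and 18.6 CPM in PLET1- cells. Its log2 fold change in the cKO was 2.65 ± 1.0 (SE) and over both genotypes 1.42 ± 0.67, with adjusted p = 1 for both in edgeR. Without PLET1- cKO replicate 3 the first was 1.91. The difference between the genotypes was 2.46 (1.33, adjusted p = 1). The PLET1- control libraries with the highest mesenchymal sums, replicates 1 and 2 at 502 and 1428 CPM, had *Prom1* at 7.76 and 32.4 CPM.

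The remaining 3 genes were higher in PLET1+ cells in 4 (*Lgr5*) or 5 (*Bmi1* and *Ly6a*) of the 6 pairs. *Lgr5* in the cKO was 1.74, 7.13 and 1.40 CPM in PLET1+ and 0.021, 0.449 and 0 CPM in PLET1- cells, the last 3 resting on 1, 19 and 0 counts. In edgeR the log2 fold change came to 4.70 ± 2.51 (SE, adjusted p = 1), and the groups did not overlap. It was 3.98 without PLET1+ cKO replicate 2 and 7.81 without PLET1- cKO replicate 2. *Bmi1* in the cKO was 31.2, 9.56 and 8.49 against 7.07, 0.142 and 6.93 CPM, also without overlap. In controls both genes overlapped between the gates. In all, 3 of the 7 genes did not overlap between the gates in controls (5.03% of all genes were as cleanly higher) and 4 in the cKO (3.09%).

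**Figure D2:**
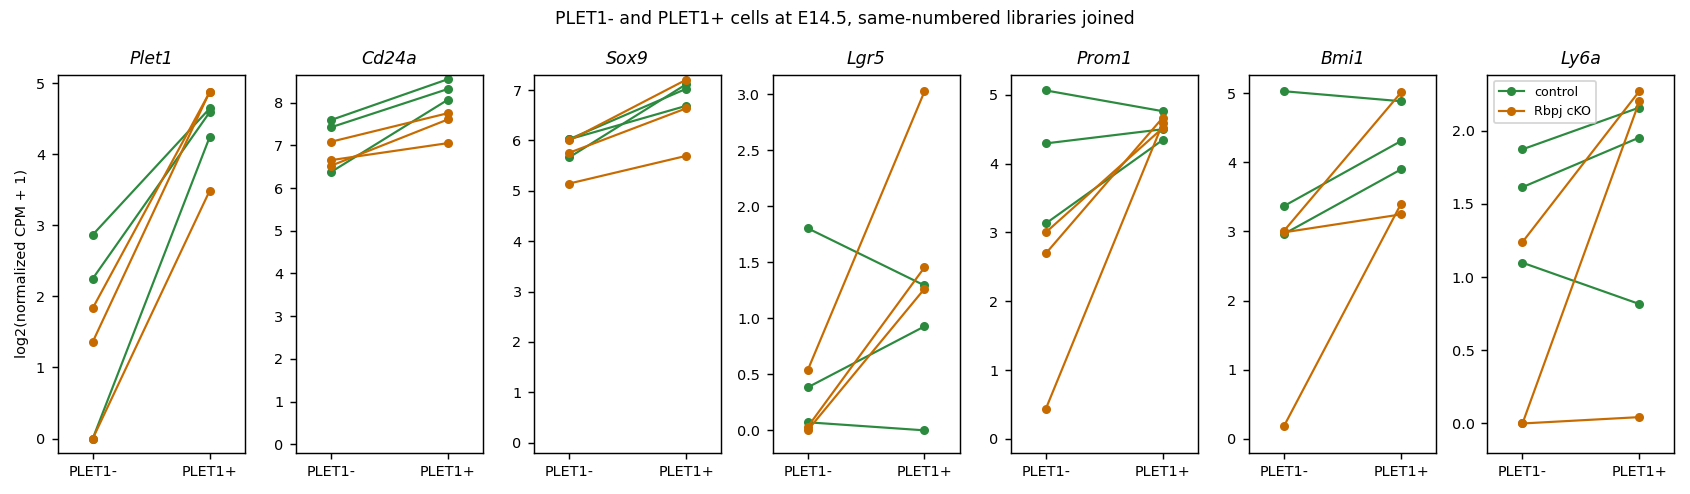
Level of each gene in E14.5 PLET1- and PLET1+ libraries as log2(normalized CPM + 1), with same-numbered libraries joined, controls in green and Rbpj cKO in orange. Plet1, Cd24a and Sox9 are higher in PLET1+ in all 6 pairs, Prom1, Bmi1 and Ly6a in 5 and Lgr5 in 4.

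Between E12.5 and E14.5 PLET1+ controls, *Cd24a* went from 452.8, 583.3 and 1261 CPM to 267.3, 318.3 and 373.4 CPM. All 3 E12.5 libraries were above all 3 E14.5 ones. That is a log2 fold change of -1.14 ± 0.28 (SE), against a median of 0.19 over all genes, with an adjusted p of 0.0588 from edgeR, which does not pass 0.05. DESeq2 (0.00259), limma-voom (0.00759) and the stricter filter on low counts did pass it. Without replicate 3 of the E12.5 controls, the highest library, it was -0.83. *Ly6a* had no read in any of the 6 E12.5 libraries and 95, 158 and 32 counts (3.46, 2.87 and 0.76 CPM) in the E14.5 PLET1+ controls. The E14.5 mean of 2.36 ± 1.42 CPM (SD, n = 3) was 30.9 times the mean level of 3 counts in E12.5 control libraries. This stage difference had an adjusted p of 0.181 from edgeR, 0.0160 from DESeq2 and 0.0215 from limma-voom. Libraries of E14.5 could also lack *Ly6a*, with 0, 0 and 38 counts in PLET1- cKO cells. None of the 7 was called between the stages by edgeR, where 0.967% of all genes were. At an unadjusted p under 0.05 there were 2 (12.9% of all genes), and *Plet1* and *Cd24a* were lower at E14.5 without overlap (8.82% of all genes). The parathyroid markers, among them *Gcm2* and *Pth*, mark the gland that arises with the thymus from the same pharyngeal pouch, and they summed to 1400, 1568 and 9091 CPM in the E12.5 controls and to 2.11, 400.3 and 3.47 CPM in the E14.5 PLET1+ controls. The library with the highest sum was also the highest for *Cd24a* and *Plet1*, and the part of these cells in the stage difference was not tested. Batch and stage cannot be told apart.

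Loss of *Rbpj* moved none of the 7 genes past the test in any of the 3 comparisons. The share of all genes called was 0.0261% at E12.5 and 0% in both E14.5 gates, and 0% for the difference between the stages. DESeq2 and limma-voom also called none of the 7. At E12.5 no gene of the 7 had an unadjusted p under 0.05. *Rbpj* RNA itself overlapped between the groups at that stage, with 2.09 to 16.2 CPM in the cKO and 15.1 to 37.9 CPM in controls. In E14.5 PLET1+ cells *Cd24a* was lower in the cKO (131.6, 193.8 and 214.6 CPM) than in controls (267.3, 318.3 and 373.4 CPM), with no overlap. This log2 fold change of -0.83 ± 0.27 (SE) had an adjusted p of 1 from edgeR, and was the 1 of the 7 at an unadjusted p under 0.05 (2.06% of all genes) and the 1 that was lower without overlap (4.57%). It was between -1.0 and -0.68 when single libraries were left out, and *Cd24a* was lower in both batches.

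In E14.5 PLET1- cells *Prom1* was the 1 gene at an unadjusted p under 0.05 (2.34% of all genes) and the 1 lower without overlap (3.2%). The cKO values of 7.01, 5.48 and 0.357 CPM were each under the lowest control value of 7.76 CPM. In edgeR this gave -2.40 ± 0.99 (SE, adjusted p = 1) on the log2 scale, and -1.67 without cKO replicate 3. All 7 fitted values were negative there under each of the 3 scalings, with a median of -1.66 against 0.02 for all genes. The PLET1- cKO libraries were also the lowest group by mean for *Plet1*, *Cd24a*, *Sox9*, *Lgr5*, *Prom1* and *Bmi1*. *Ly6a* in this group had 0, 0 and 38 counts.

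**Figure D3:**
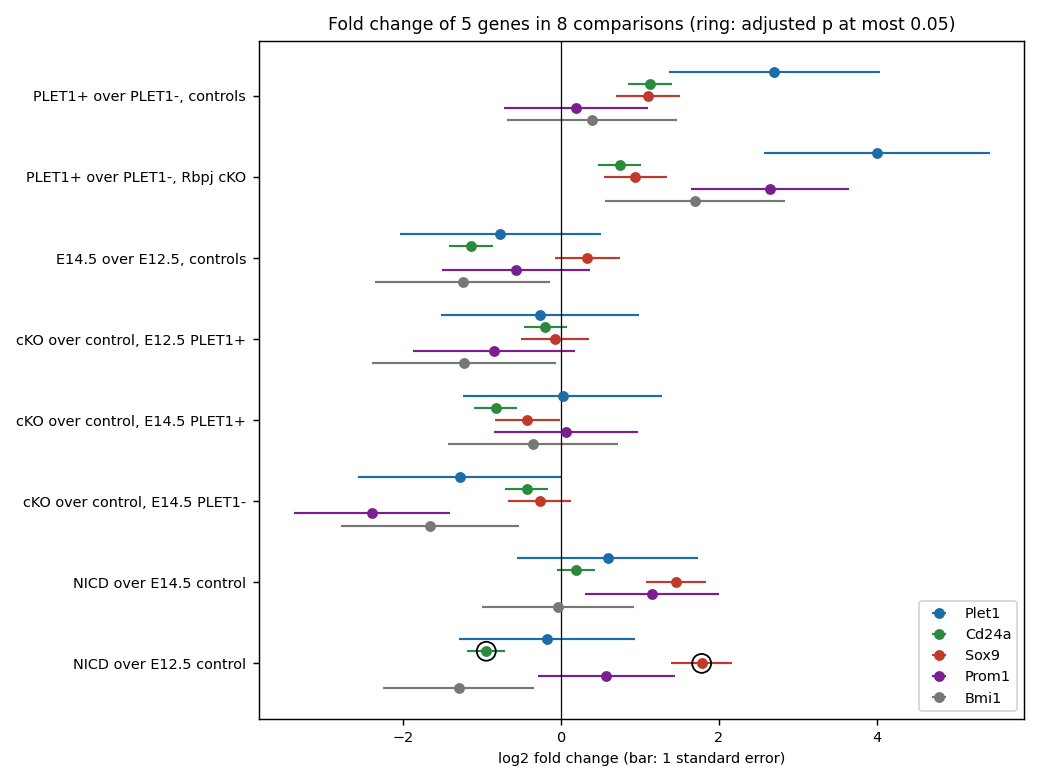
Log2 fold change (point) and standard error (bar) of 5 of the genes in 8 comparisons from edgeR; a ring marks an adjusted p of at most 0.05. The rings are on Cd24a (-0.95) and Sox9 (1.78) between NICD and E12.5 controls, and Plet1 has the widest bars, with standard errors of 1.12 to 1.43. Lgr5 and Ly6a, at 3 counts or fewer in 6 and 14 of the 23 libraries, are left out.

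*Sox9* stood out in NICD cells. Its 5 libraries were at 250.9, 380.2, 405.6, 325.5 and 362.7 CPM, the 5 highest of the 23. E14.5 PLET1+ controls were at 102.1 to 137.8 CPM and E12.5 controls at 89.3, 119.8 and 73.4 CPM. The means were 345.0 ± 60.1 CPM (SD, n = 5) in NICD, 123.1 ± 18.7 CPM (SD, n = 3) in E14.5 and 94.1 ± 23.6 CPM (SD, n = 3) in E12.5 controls. The log2 fold change over E14.5 controls was 1.45 ± 0.38 (SE) with an adjusted p of 0.0896 from edgeR, which fell under 0.05 with DESeq2 (0.00411), limma-voom (0.00617), scaling to housekeeping genes and no filter. Over E12.5 controls it was 1.78 (0.39), and this passed the test (adjusted p = 0.0179 from edgeR). The median shift of all genes was 0.04 and 0.17. Leaving out replicate 1 or replicate 3 of the E12.5 controls ended this call (adjusted p = 0.0752 and 0.0713), with a log2 fold change of 1.80 and 1.40. The mesenchymal sums of NICD replicates 1 to 5 were 350.3, 192.0, 23.3, 426.3 and 331.5 CPM, and their part in the *Sox9* difference was not tested.

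*Cd24a* in NICD was 275.0, 275.1, 449.2, 393.3 and 417.1 CPM, which overlapped the E14.5 controls (267.3 to 373.4 CPM) and lay under all E12.5 controls (452.8 to 1261 CPM). Its log2 fold change against E12.5 controls was -0.95 ± 0.24 (SE) and passed the test (adjusted p = 0.039 from edgeR), but this call was lost under 5 of 9 other settings and without any of 5 single libraries (replicates 2 and 3 of the E12.5 controls and 1, 2 and 4 of NICD), with -0.61 (adjusted p = 0.401) when replicate 3 of the E12.5 controls was left out. Both calls in this comparison, 2 of the 7 genes where 2.81% of all genes were called, rest on libraries of different stages and laboratories. Parathyroid markers summed to 0.273 to 10.1 CPM in NICD and to 1400 to 9091 CPM in the E12.5 controls, highest in replicate 3. The part of these cells in either call was not tested. *Sox9* was higher without overlap (5.63% of all genes) and *Cd24a* lower (4.91%).

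None of the 7 was called between NICD and E14.5 PLET1+ controls by edgeR (0.684% of all genes), DESeq2 and limma-voom each called 2 (*Sox9* and *Ly6a*), and 2 had an unadjusted p under 0.05 (15.7% of all genes). *Ly6a* had 2, 0, 0, 0 and 0 counts in NICD cells, against 95, 158 and 32 in the controls. The mean of the controls was 56.1 times the mean level of 3 counts in NICD libraries (adjusted p = 0.111 from edgeR for the difference). *Prom1* was 59.6, 29.3, 35.4, 48.8 and 79.0 CPM in NICD, all above the 19.3 to 26.1 CPM of the controls. So 2 genes were higher without overlap (5.22% of all genes) and 1 lower (6.52%). *Lgr5* had 799 counts (11.8 CPM) in NICD replicate 1 and 4, 6, 1 and 43 counts in the other 4, and that library also had the highest *Plet1* of the NICD group, 60.8 CPM. *Bmi1*, the PRC1 subunit, was 15.4, 26.5, 4.35, 9.23 and 43.6 CPM and spanned the controls (28.5, 13.9 and 18.8 CPM).

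Across all 7 groups at once, *Cd24a* (adjusted p = 3.21e-05) and *Sox9* (adjusted p = 0.000635) passed edgeR's test, 2 of the 7 genes where 3.93% of all genes passed. Both did so under each of the 32 alternatives run, and DESeq2 called 5 of the 7 and limma-voom 3. *Ly6a* (0.0714), *Plet1* (0.239), *Prom1* (0.252), *Bmi1* (0.544) and *Lgr5* (0.717) did not. The order of the group means was the following, and most neighbours in it overlapped. *Plet1* was highest in E12.5 controls (40.2 ± 21.6 CPM, SD, n = 3) and lowest in PLET1- cKO cells, and only the step from E14.5 PLET1+ controls down to PLET1- controls was free of overlap. *Cd24a* ranked from E12.5 controls (765.8 ± 434.0 CPM, SD, n = 3) through E12.5 cKO (621.6 ± 173.8), NICD (361.9 ± 81.8, n = 5), E14.5 PLET1+ controls (319.7 ± 53.1), PLET1+ cKO (180.0 ± 43.2) and PLET1- controls (148.2 ± 58.2) to PLET1- cKO (108.4 ± 23.1). Its steps from E12.5 cKO to NICD and from E14.5 PLET1+ controls to PLET1+ cKO were free of overlap. For *Sox9* the steps from NICD to E14.5 PLET1+ controls and from E12.5 controls to PLET1- controls were free of overlap, and for *Prom1* the last one, from PLET1- controls to PLET1- cKO. *Bmi1* was highest in E12.5 controls (12.2, 71.7 and 53.1 CPM), and it and *Lgr5* had no step without overlap. *Lgr5* was highest in the E12.5 cKO (2.79, 4.71 and 9.84 CPM).

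The pathways and families of the 7 genes were read from fixed lists. Of 16 genes of TEC differentiation, which include the MHC class II and thymoproteasome genes that come on as PLET1 is lost, 4 rose from E12.5 to E14.5 and none fell (0.967% of all genes were called). *H2-Eb1* (log2 fold change 3.62), *H2-Ab1* (2.37), *Cd74* (4.02) and the thymoproteasome subunit gene *Psmb11* (2.11) were the 4, with adjusted p-values of 0.000333, 0.00141, 0.00314 and 0.0141 from edgeR, and *Psmb11* was not called when libraries were scaled to housekeeping genes (0.122). The list's median was 1.87 against 0.19 for all genes. Between NICD and E12.5 controls 3 of the 16 were called, all higher in NICD (2.81% of all genes were called): *H2-Eb1* (3.83), *H2-Ab1* (2.40) and *Cd74* (4.08), with adjusted p-values of 6.93e-05, 0.000404 and 0.00116 from edgeR. Between NICD and E14.5 PLET1+ controls none of the 16 was called (0.684% of all genes were). There 12 were fitted lower in NICD and 4 higher, with a median of -0.40 against 0.04 for all genes. With housekeeping scaling 9 were lower and 7 higher. At an unadjusted p under 0.05 there were 6 of the 16 (15.7% of all genes). Over all groups 11 of the 16 were called (3.93% of all genes). Between the gates all 16 were fitted lower in PLET1+ cells, with a median log2 fold change of -0.66 against 0.00, and none was called, with 6 at an unadjusted p under 0.05 (4.49% of all genes). That direction held for all 16 under each of the 3 scalings.

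Of 15 tested genes of the early thymic epithelium, none was called between the gates, the stages or with *Rbpj* loss by edgeR, apart from 1 between the stages with housekeeping scaling. At an unadjusted p under 0.05 there were 3 between the gates over both genotypes (4.49% of all genes), 7 between the stages (12.9%) and 1 with *Rbpj* loss in each E14.5 gate (2.06% and 2.34%). Of this list, *Krt5*, a keratin of the medullary lineage and of early progenitors, was higher in NICD (1317 ± 424 CPM, SD, n = 5) than in E12.5 controls (62.2 ± 31.8 CPM, SD, n = 3), by 4.41 on the log2 scale (adjusted p = 0.0012 from edgeR). E14.5 PLET1+ controls had 365.2 ± 111.5 CPM (SD, n = 3) of *Krt5*. None of the list was called between NICD and these E14.5 controls. *Krt5* and *Six4* passed the test over all groups, as 3.93% of all genes did. Of the 4 tested Ly6 relatives of *Ly6a*, *Ly6e* rose from 40.0 ± 21.0 to 581.2 ± 68.8 CPM (SD, n = 3) between the stages (log2 fold change 3.92, adjusted p = 2.98e-05 from edgeR) and was also higher in NICD than in E12.5 controls (2.84, adjusted p = 0.000106). Its level in NICD was 275.4 ± 52.0 CPM (SD, n = 5).

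Of the 6 tested SOX family genes, *Sox11* fell from 214.5 ± 62.2 to 40.1 ± 13.9 CPM (SD, n = 3) between the stages (log2 fold change -2.46, adjusted p = 0.00847 from edgeR) and was lower in NICD than in E12.5 controls (-1.77, adjusted p = 0.0118). *Sox11* and *Sox4* were called over all groups. Of all genes, 0.967% were called between the stages, 2.81% between NICD and E12.5 controls and 3.93% over all groups. Of the 11 other progenitor surface and structural genes, *Cd44*, the hyaluronan receptor, had at most 2 counts in the E12.5 controls. Its mean in E14.5 PLET1+ controls was 495.7 times the mean level of 3 counts in those libraries (adjusted p = 0.0111 from edgeR for the difference). In NICD it was 194.5 times that level (adjusted p = 0.00942 from edgeR for the difference). These ratios allow for counting error only. The E12.5 *Rbpj* cKO averaged 4.85 ± 7.42 CPM (SD, n = 3) of *Cd44*. The integrin gene *Itgb4* was higher in NICD than in E12.5 controls (log2 fold change 3.08, adjusted p = 0.0206 from edgeR), and the *Prom1* relative *Prom2* was called with *Cd44* over all groups. *Itgb4* averaged 20.7 CPM in NICD, 11.3 CPM in E14.5 PLET1+ controls and 3.01 CPM in E12.5 controls. Of 17 partners of BMI1 in PRC1, 1 (*Cbx6*) was called, over all groups, near the 3.93% of all genes called there. Of the 2 PRC1 target genes listed 1 was tested and it was not called. Of 9 tested genes of the LGR5 and Wnt feedback pathway none was called in any comparison by edgeR, with at most 1 at an unadjusted p under 0.05 in each. DESeq2 and limma-voom calls were not counted for these lists.

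**Figure D4:**
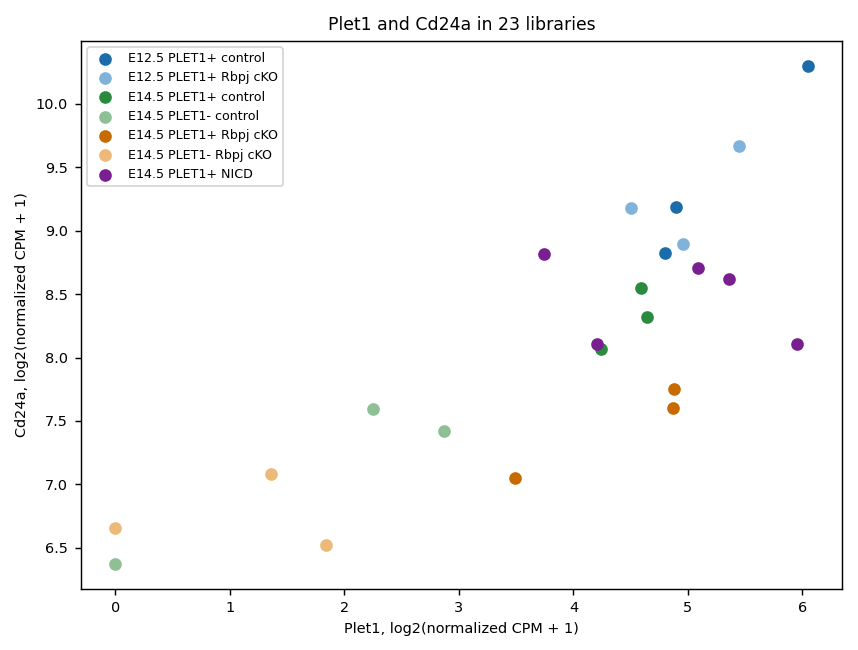
Plet1 (horizontal) against Cd24a (vertical) in the 23 libraries, both as log2(normalized CPM + 1) and coloured by group. The 6 PLET1- libraries lie at the lower left and the E12.5 libraries at the upper right; Pearson's r was 0.81.

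The genes whose pattern over the 23 libraries was most like that of *Plet1* (Pearson's r of log2(CPM + 1), among 13438 tested genes with a mean of at least 50 counts) were *Cldn6* (0.85), *Cd24a* (0.81), *Zdhhc2* (0.80), *Zfp236* (0.79) and *Ivns1abp* (0.78). *Cldn6*, a claudin of embryonic epithelia, had group means of 157.4 CPM in E12.5 controls, 88.3 in E14.5 PLET1+ controls, 25.3 in PLET1- controls and 114.6 in NICD. So *Cd24a*, 1 of the 7 genes, was second among the 13438 genes in likeness to *Plet1*. With *Plet1* the others had r of 0.59 (*Prom1*), 0.53 (*Lgr5*), 0.48 (*Sox9*), 0.36 (*Bmi1*) and -0.20 (*Ly6a*). The libraries share their gate, stage and batch, so these are descriptions over points that are not independent. Most like *Cd24a* were *Bex4* (0.92), *Ikzf2* (0.86) and *Baz2b* (0.84), and most like *Sox9* were *Vdac3* (0.92), *Gm15920* (0.90) and *AA465934* (0.89), all 3 highest in NICD. Most like *Prom1* were *Map2* (0.82), *Gm8378* and *Tcim* (both 0.72), and most like *Bmi1* were *Fam8a1* (0.83), *Mtx2* (0.74) and *Zranb1* (0.72). For *Lgr5* they were *Vwa2* (0.80), *Cyb5r1* and *Irx2* (both 0.71), and for *Ly6a* they were *Them7* and *Scnn1b* (both 0.86) and *Gm43063* (0.81), which had group means of at most 0.407 CPM at E12.5 and in NICD.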

How the data were processed

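Smart-seq2 libraries of 100 sorted cells were sequenced, and the authors trimmed reads (Trimmomatic 0.32), aligned them to GRCm38.p5 (STAR 2.5.1a) and deposited raw counts per GENCODE M12 gene from featureCounts (unstranded, paired, no multimapping reads; version 1.5.0-p3 per the file headers, 1.5.1 per the submitters' processing notes). Groups and batches came from the labels. Here, genes that passed filterByExpr (19140) were fitted with edgeR 4.0.16 (R 4.3.3; TMM, quasi-likelihood test) in 1 model of 23 libraries with 7 group means and 2 batch terms. Calls were made at a Benjamini-Hochberg adjusted p of at most 0.05 over all genes tested. CPM were TMM-normalized, and the floor was 3 counts. DESeq2 1.42.0, limma-voom (limma 3.58.1), other scalings and filters, other model terms and leaving out libraries were alternatives. Scripts were tested on simulated data. Depth was 20053241 to 92699969 counts per library.

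The 7 genes and the gene lists were chosen with earlier results of these data known. Named beside the 7 genes were listed genes called in a comparison and the genes most correlated with each. In the E14.5 *Rbpj* cross, same-numbered libraries deviated together (r of 0.26 to 0.556 over 8468 genes, all pairs), so the numbers pair these samples. The main model held batch terms but not this pairing, which only the replicate block among the alternatives fitted. The *Rbpj* cross samples of each stage came from 2 litters on separate days, and p-values measure the spread between these samples. Promoter windows were taken from RefSeq (GRCm38.p6). The result of 1 listed gene is not reported here.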

Additional observations from a re-analysis of the deposited data

Results flagged for a closer look

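In the group of 5 NICD libraries, the highest or lowest library stood apart from the others by more than 0.71 of the group's range (Dixon's 95% critical value) for 2 of the 7 genes. Chance marks about 1 in 20 groups of normally distributed values, which levels near 0 counts are not, so that rate does not apply to these 2 genes. *Lgr5* was 11.8 CPM (799 counts) in replicate 1 and at most 0.542 CPM in the other 4, a gap of 0.955 of the range. *Ly6a* was 0.0296 CPM in replicate 1 and 0 in the other 4, which rests on 2 counts. With reads in 1 library only, the gap is the whole range whatever the count.

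*Lgr5* moved in opposite directions with loss of *Rbpj* in the gates at E14.5. It was higher in the cKO in all 3 same-numbered pairs of PLET1+ libraries (0, 1.45 and 0.902 CPM in controls and 1.74, 7.13 and 1.40 CPM in the cKO) and lower in all 3 pairs of PLET1- libraries (0.0511, 2.49 and 0.304 CPM against 0.021, 0.449 and 0 CPM). The test of the difference itself gave 4.42 on the log2 scale (standard error 3.16, adjusted p = 1 from edgeR), so it did not pass. Of these 12 libraries, 4 held 2 counts of *Lgr5* or fewer.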

How the results depend on the processing

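The number of the 7 genes called went from 0 to 1 without a filter and to 3 with DESeq2 between the gates over both genotypes, and from 0 to 1 with DESeq2 in controls. Between the stages it went from 0 to 1 with the stricter filter and to 2 with DESeq2 and with limma-voom. For NICD against E14.5 controls it went from 0 to 1 with scaling to housekeeping genes and to 2 without a filter, with DESeq2 and with limma-voom. For NICD against E12.5 controls it fell from 2 to 1 with housekeeping scaling, without a filter, without batch terms or with only the compared groups, and ran from 0 (without E12.5 control replicate 3) to 2 when single libraries were left out. Over all groups it rose from 2 to 5 without a filter and with DESeq2.

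For *Plet1* the direction of small differences turned. The difference of the gates between genotypes ran from -0.30 (without PLET1- control replicate 2) to 2.81, the *Rbpj* effect in E14.5 PLET1+ cells from -0.35 to 0.38 and in PLET1- cells from -2.84 to 0.27, its difference between the stages from -0.03 to 0.67, and NICD against E12.5 controls from -0.53 to 0.12 when single libraries were left out, the last being 0.02 with housekeeping scaling. None of these passed the test in any alternative, and the cause was not tested. *Cd24a* and *Sox9* passed the test over all groups under each of 32 alternatives.

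With the replicate number as a block in the E14.5 cross, *Plet1* in PLET1+ cells went to -0.40 with loss of *Rbpj*, and the difference of that effect between the stages to -0.12, and the block changed no call of the 7 genes there or over all groups. At E12.5, between the stages and with NICD, libraries share only a number (r of -0.209 to 0.046). A block there took the 2 calls of NICD against E12.5 controls to 0, *Cd24a* to -1.10 (adjusted p = 0.348) and *Sox9* to 1.87 (adjusted p = 0.265) in edgeR.

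Counts over all genes moved by more than 1.5 times in these cases. Main counts of 0 for the gates (over both, in controls, in the cKO and their difference between genotypes) became 62, 16, 23 and 6 without a filter and 209, 153, 152 and 107 with DESeq2, and the first 3 became 3, 1 and 2 with limma-voom, while the first became 2 with the replicate block or with only the compared groups and 1 without the 4 libraries numbered 1 of the E14.5 cross (an alternative added after seeing the data). Those of 0 for *Rbpj* loss at E14.5 (PLET1+, PLET1-) and its difference between the stages became 10, 15 and 24 without a filter and 100, 160 and 193 with DESeq2. For the stage, the main count of 185 became 519 without a filter, 1291 with DESeq2, 448 with limma-voom, 2 with the replicate block, 1 with only the compared groups and 280 without the 4 libraries numbered 1. For *Rbpj* loss at E12.5, 5 became 52 without a filter, 318 with DESeq2, 2 with the block and 0 with housekeeping scaling, limma-voom, no batch terms or only the compared groups. For NICD against E14.5 controls, 131 became 413 with housekeeping scaling, 677 without a filter, 1236 with DESeq2, 998 with limma-voom, 1 with the block and 17 with only the compared groups. For NICD against E12.5 controls, 538 became 1129, 2285, 1500, 3 and 325 without a filter, with DESeq2, with limma-voom, with the block and with only the compared groups. Over all groups, 752 became 4113, 2524 and 1929 without a filter, with DESeq2 and with limma-voom, 1314 with housekeeping scaling, 1246 with the block and 1245 without the 4 libraries. Leaving out single libraries gave 91 to 130, 0 to 6, 32 to 172, 293 to 561 and 465 to 870 for these 5, 0 to 1 for the gates over both genotypes and 0 to 3 for the difference of *Rbpj* loss between the stages. *Lgr5* and *Ly6a* had 3 counts or fewer in 6 and 14 libraries, the deep NICD libraries among them, and the part of depth in this was not tested.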
